A study of Mus musculus with 2 samples.

Results

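Oxidative phosphorylation (OXPHOS) was followed through 108 of the 32285 measured mouse genes. Membership follows from the gene symbol: the set holds every symbol that starts with Nduf, Uqcr, Cox4, Cox5, Cox6, Cox7, Cox8, Atp5 or mt-, plus Sdha to Sdhd and Cycs. Of these, 95 lie in the nuclear genome and 13 in mitochondrial DNA. The nuclear members comprise 36 genes of complex I, 4 of complex II, 8 of complex III, 19 of complex IV, 17 of complex V, 8 assembly factors of complex I, cytochrome c and 2 others, the locus listed as Ndufb1-ps and the supercomplex factor Cox7a2l. The mt- members comprise 7 genes of complex I, 1 of complex III, 3 of complex IV and 2 of complex V.

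The question was what natural killer (NK) cells do to CD8+ T cell differentiation within a tumour. WT mice bore MC38 tumours, which derive from a colon carcinoma of the mouse. On day 9 live CD8+ cells were sorted from them, and 1 single-cell library of 10x Genomics 5' chemistry was made per group. The control mice carry the treatment label PBS, although their library name ends in Iso, and the other mice received the a-NK1.1 antibody, which depletes NK cells. How many mice went into a library is unknown here, so there is no replicate, no test was made, and every interval below covers counting error only.

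The respiratory chain passes electrons through complexes I to IV and pumps protons out of the mitochondrial matrix, and complex V, the ATP synthase, uses that gradient to make ATP. Most subunits are encoded in the nucleus and imported, while the catalytic cores of complexes I, III and IV and part of the proton channel of complex V are encoded in mitochondrial DNA, which is transcribed from both strands into long precursors that are then cut into single RNAs. In CD8+ T cells, mitochondrial respiration is known to serve quiescent and memory-type cells, and activated effector cells add strong glycolysis.

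Cells were barcodes with at least 500 detected genes, a share of mt- UMIs under 10%, and at least 1 UMI (a counted molecule) of Cd3d, Cd3e or Cd3g and at least 1 of Cd8a or Cd8b1. They numbered 6901 of 7866 control barcodes and 8164 of 10111 NK-depleted barcodes, with medians of 11444 and 12289.5 UMIs per cell. Cd8a stood at 877 and 695 CPM (UMIs of a gene scaled to a library total of 1000000) in the control and NK-depleted cells, and Cd4 at 0.432 and 0.207 CPM. Ncr1, a marker of NK cells, had 18 and 3 UMIs, but a sort on CD8 leaves few NK cells to count, so this is no check of the depletion. The libraries share 391 barcode sequences, of which 151 and 61 fell in the populations described here. The limit on the mt- share removed 120 control barcodes (1.71% of those otherwise eligible, exact Clopper-Pearson 95% interval 1.42 to 2.04) and 676 NK-depleted barcodes (7.65%, 7.10 to 8.22), so the mt- levels below are levels within that limit.

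Nuclear OXPHOS promoters are known for sites of the transcription factor NRF1, and its palindromic site and the core of that site are shown here as letters that members of different complexes have in common. RefSeq windows (GRCm38.p6) from 250 bases before to 50 after the gene's start were found for 76 of the 95 nuclear members. The full palindrome GCGCATGCGC stood in 7 of these 76 members (9.21%), against 0.971% of all 32851 windows. Its core GCATGCGC, which lies within the palindrome, stood in 13 members (17.1%) and in 2.71% of all windows. Of the motifs of 2 other factors, AAGATGGC (YY1) stood in 10 members (13.2%) and 2.75% of windows, and CCGGAAGT (the ETS core bound by GABPA) in 5 members (6.58%) and 3.89% of windows. The member shares are per gene and the background is per window. Counted per window too, the 81 windows of members held the palindrome in 8.64%, its core in 16.0%, AAGATGGC in 12.3% and CCGGAAGT in 6.17%. Both strands were searched and a match is a description of the letters only. The 30 bases around each of the 7 palindromes, 5′ to 3′ along the gene's strand, carry the palindrome in capitals, and differ on either side of it:
Atp5g2: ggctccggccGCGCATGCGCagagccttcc
Atp5k: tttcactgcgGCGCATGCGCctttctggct
Cox6a1: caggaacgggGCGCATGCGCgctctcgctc
Ndufa11: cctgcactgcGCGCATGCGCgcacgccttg
Ndufaf4: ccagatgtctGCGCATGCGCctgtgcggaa
Ndufaf5: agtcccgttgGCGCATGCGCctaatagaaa
Uqcrc1: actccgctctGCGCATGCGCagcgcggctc
They lie at chr15:102671070-102671099 (minus strand), chr5:108434430-108434459 (minus), chr5:115349101-115349130 (minus), chr17:56717692-56717721 (plus), chr4:24897960-24897989 (plus), chr2:140170652-140170681 (plus) and chr9:108936668-108936697 (plus). The 250 bases before the start of Cycs (chr6:50566570-50566819, minus strand), the gene of the mobile electron carrier cytochrome c whose level was low in Tcf7+ cells, hold the NRF1 core, in capitals:
Cycs: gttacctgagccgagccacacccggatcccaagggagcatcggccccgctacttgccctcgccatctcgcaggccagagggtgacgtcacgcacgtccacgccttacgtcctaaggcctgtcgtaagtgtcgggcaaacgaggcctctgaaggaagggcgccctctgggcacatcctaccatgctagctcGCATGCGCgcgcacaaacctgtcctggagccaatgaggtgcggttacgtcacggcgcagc
None of these motifs occurred in the windows of Ndufb7 and Cox5a, which stood with Cycs at the low end of the Tcf7 comparison, and no window was used to explain a difference.

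Between the libraries, the nuclear members kept nearly the same share of UMIs while the mt- members took a larger share in NK-depleted cells. The 95 nuclear members made up 2.19% of UMIs in control and 2.27% in NK-depleted cells, a ratio of 1.04 (1.03 to 1.04). The 13 mt- members made up 2.48% and 3.04%, a ratio of 1.23 (1.22 to 1.23). The ratio of mt- to nuclear UMIs was thus 1.13 in control and 1.34 in NK-depleted cells. The median log2 ratio was 0.06 over the 85 nuclear members and 0.31 over the 13 mt- members of at least 10 CPM, and -0.06 over all 7624 genes at that level.

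Cells varied more in mt- than in nuclear transcripts. The middle 50% of control cells held 1.76% to 2.38% of UMIs in nuclear members, and the middle 50% of NK-depleted cells 1.80% to 2.52%. For mt- members the same range was 1.48% to 3.04% in control and 2.10% to 3.82% in NK-depleted cells. The difference reached along the whole distribution: the cell at the 5th percentile held 0.710% mt- UMIs in control and 1.16% in NK-depleted cells, and the cell at the 95th held 4.63% and 6.51%. Cells between 5% and 10% made up 3.48% of the control and 11.1% of the NK-depleted population. Just inside the limit, between 9% and 10%, were 21 control and 65 NK-depleted cells, and just outside it, between 10% and 11%, 8 and 49 barcodes.

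**Figure D1:**
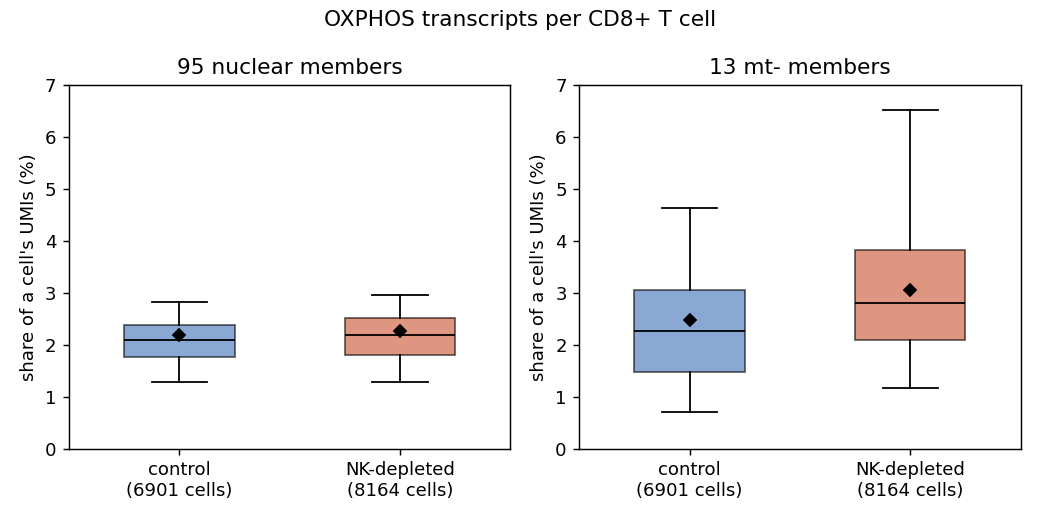
Share of each cell's UMIs (percent) in the nuclear members and in the mt- members, by library. Boxes span the middle 50% of cells with the median as a line, whiskers run from the 5th to the 95th percentile, and diamonds mark the share in the summed counts. The nuclear boxes sit at almost the same height (medians 2.08% and 2.19%), and the mt- box is higher in NK-depleted cells (medians 2.27% and 2.80%).

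The mt- share is also a common measure of cell and RNA quality, and other such measures differed along it, though not in 1 direction. Malat1, a long RNA retained in the nucleus, stood at 18582 CPM in control and 14206 CPM in NK-depleted cells, so it was lower in the library with more mt- UMIs. Within a library it was highest in cells under 1% mt- UMIs (32601 and 24885 CPM), lower between 2% and 3% (15628 and 12542 CPM) and again higher between 5% and 10% (20835 and 17557 CPM). Median depth ran the other way, with 7956 and 7027 UMIs under 1%, 15785 and 15455.5 UMIs between 2% and 3%, and 7423 and 8769 UMIs between 5% and 10%. The nuclear members made up 2.07%, 2.34% and 1.80% of non-mt- UMIs in these cells of the control, and 2.35%, 2.48% and 1.80% in the NK-depleted library. Depth itself went with the mt- share differently in the libraries. From the shallowest to the deepest of 5 depth bins it went from 2.20% to 2.61% of UMIs in control and from 3.48% to 2.97% in NK-depleted cells. The part of RNA quality in the library difference was not tested. With the limit set at 5%, the log2 mt- ratio was 0.20 in place of 0.29. Across cells, taking nuclear members as a share of non-mt- UMIs, the correlation of nuclear and mt- shares was -0.136 (Pearson) and -0.0747 (Spearman) over 6246 control cells and -0.407 and -0.355 over 7384 NK-depleted cells, as a description of cells that share a library.

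By complex, the nuclear log2 ratios lay close together: 0.07 for complex I, -0.014 for complex II, 0.0099 for complex III, 0.011 for complex IV, 0.09 for complex V and 0.06 for cytochrome c. The mt- members of complexes I, III, IV and V had log2 ratios of 0.29, 0.31, 0.26 and 0.38. The mt- ratio was therefore above the nuclear ratio in each of the 4 complexes built from both genomes. A member was counted as higher when its level was at least 25% higher, and as lower when it was at least 20% lower, which is the same fold reversed. In NK-depleted cells, 1 of 85 nuclear members was higher and 1 lower by this limit, where 6.27% of all genes at 10 CPM were higher and 11.9% lower. Of the 13 mt- members, 5 were higher (mt-Nd3, mt-Co3, mt-Atp8, mt-Atp6 and mt-Nd2) and 0 lower. These counts depended on the scaling and on the limit on the mt- share. With TMM factors 7 nuclear members were higher, and with median-of-ratios factors 6. The median log2 ratio of all genes rose as well, from -0.064 to 0.023 and 0.0041 under these factors. The share of all genes past the limit under them is not given here. Of the mt- members, 1 was higher at a limit of 5% and 8 at 20%.

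**Figure D2:**
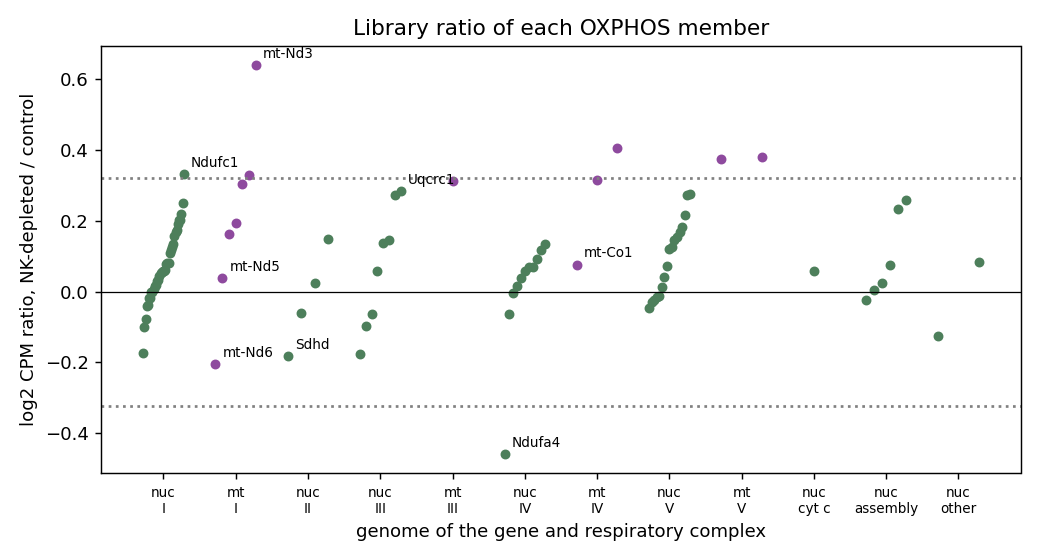
Log2 CPM ratio of NK-depleted over control for each of the 98 members of at least 10 CPM, grouped by genome (nuc, nuclear, green; mt, mitochondrial DNA, purple) and complex. Dotted lines mark the fold limit; the nuclear points gather around 0 with Ndufa4 (-0.46) and Ndufc1 (0.33) at the ends, and 11 of the 13 mt- points lie above 0.07, with mt-Nd3 at 0.64 and mt-Nd6 at -0.20.

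Ndufc1, an accessory subunit of complex I, was the nuclear member above the fold limit, at 125 CPM in control and 157 CPM in NK-depleted cells, a ratio of 1.26 (1.23 to 1.29). Ndufa4, a subunit first described in complex I and now placed in complex IV, was the one below it. It stood at 316 CPM in control and 230 CPM in NK-depleted cells, a ratio of 0.728 (0.716 to 0.739), and 76.4% and 64.0% of cells had a UMI of it after thinning each cell to 5500 UMIs. It was lower in each of 8 classes formed by joint Mki67, Tcf7 and Havcr2 status, with ratios of 0.63 to 0.96. Its hypoxia-induced paralogue Ndufa4l2 had 0 UMIs in control and 1 in NK-depleted cells. Sdhd, a membrane anchor of complex II, stood at 61.0 and 53.8 CPM (ratio 0.881, 0.852 to 0.912) and was the other nuclear member lower in all 8 classes, as were 18.6% of all genes. In contrast, 21 of 85 nuclear members were higher in all 8 classes, against 6.52% of all genes, among them the ATP synthase subunits Atp5k (298 and 361 CPM), Atp5d (398 and 452 CPM) and Atp5mpl (263 and 306 CPM). Any ratio above 1 counted here, and the lowest of Ndufa2 was 1.001. The smallest class held 34 control and 69 NK-depleted cells, where genes of few UMIs can miss such agreement through counting error alone. The background was not matched for level, and the part of level in these shares was not tested.

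Further members of each complex moved in either direction. The catalytic beta subunit of the ATP synthase, Atp5b, stood at 373 CPM in control and 452 CPM in NK-depleted cells, a ratio of 1.21 (1.19 to 1.23). Atp5e, the epsilon subunit, stood at 842 and 919 CPM, a ratio of 1.09 (1.08 to 1.101). In complex III, the hinge protein Uqcrh was lower in NK-depleted cells (758 and 671 CPM, ratio 0.885), while the core protein Uqcrc1 was higher (73.0 and 88.9 CPM, ratio 1.22). In complex II, the catalytic subunits Sdha (73.5 and 70.5 CPM) and Sdhb (134 and 136 CPM) and the anchor Sdhc (43.9 and 48.7 CPM) had ratios of 0.960, 1.02 and 1.11, and that of Sdha was above 1 under either other scaling of the libraries (log2 0.03 and 0.0071). Cycs stood at 252 and 262 CPM, a ratio of 1.04. The 3 genes for the identical c subunit of the ATP synthase ring, Atp5g1, Atp5g2 and Atp5g3, had ratios of 1.09, 0.989 and 0.992. Ndufb1-ps, which its name marks as a pseudogene, held 467 and 495 CPM. No gene named Ndufb1 was among the members, and whether these UMIs come from a functional gene was not tested.

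Tissue-restricted isoforms of complex IV were nearly absent. Cox6a2, the heart and muscle form of Cox6a, had 698 UMIs in control and 238 in NK-depleted cells, or 6.56 and 1.90 CPM, a ratio of 0.290 (0.249 to 0.336). Its UMIs were concentrated in Havcr2- cells (9.89 CPM in control, 2.79 in NK-depleted) rather than Havcr2+ cells (1.11 and 0.598 CPM), and 0.704% and 0.393% of thinned cells had a UMI. Siglech, a marker of plasmacytoid dendritic cells, was lower as well, at 14.1 and 3.56 CPM and in 0.736% and 0.311% of thinned cells. Of the Cox6a2 UMIs, 677 in control and 187 in NK-depleted cells lay in the 67 and 31 cells with a Siglech UMI. Without those cells 21 and 51 UMIs were left, and the log2 ratio went from -1.79 to 1.03. Its widespread counterpart Cox6a1 stood at 237 and 260 CPM. Cox6b2 had 159 and 218 UMIs, Cox7a1 had 115 and 182 (ratio 1.34, 1.06 to 1.71), Cox7b2 had 4 and 0, and Cox4i2, induced by hypoxia, had 3 and 2. Cox8b and Cox8c had 0 UMIs in both libraries, where a count of 0 allows a level of up to 0.0282 and 0.0239 CPM (3 counts per library). With Ndufa4l2, Ndufaf5 and Ndufaf6 these make up the 10 nuclear members under 10 CPM.

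The mt- members did not move by 1 factor. The largest ratio was that of mt-Nd3, a complex I core subunit, at 508 CPM in control and 792 CPM in NK-depleted cells, a ratio of 1.56 (1.54 to 1.58). The cytochrome c oxidase subunit mt-Co3 followed with 4433 and 5876 CPM (ratio 1.33, 1.32 to 1.33). The ATP synthase subunits mt-Atp8 (120 and 156 CPM) and mt-Atp6 (4725 and 6130 CPM) had ratios of 1.30 each. mt-Nd2 (1121 and 1407 CPM), mt-Co2 (3872 and 4819 CPM), mt-Cytb (1662 and 2066 CPM) and mt-Nd1 (1344 and 1661 CPM) had ratios of 1.26, 1.24, 1.24 and 1.24. mt-Nd4 (1213 and 1388 CPM) and mt-Nd4l (183 and 205 CPM) had 1.14 and 1.12. The catalytic subunit of complex IV, mt-Co1, held 5182 and 5465 CPM with a ratio of only 1.05 (1.05 to 1.06), and mt-Nd5 held 416 and 427 CPM (1.03, 1.01 to 1.04). With the mt- limit at 5%, the log2 ratios of these 2 genes were below 0 (-0.0042 and -0.05).

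mt-Nd6 was the exception in direction, at 50.9 CPM in control and 44.2 CPM in NK-depleted cells, a ratio of 0.868 (0.836 to 0.902). It is the only one of the 13 that is encoded on the minus strand of mitochondrial DNA, where its annotation overlaps the end of mt-Nd5 on the other strand, and the sources used here do not state the strand setting of the counting. As a share of all mt- UMIs, mt-Co1 went from 20.9% to 17.95% and mt-Nd3 from 2.05% to 2.60%. In the barcodes at or over the 10% limit, mt-Co1 held 17.7% and 14.4% of mt- UMIs, and mt-Atp6 20.1% and 21.7%, so the share of mt-Co1 was lower and that of mt-Atp6 higher in the NK-depleted library there too.

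**Figure D3:**
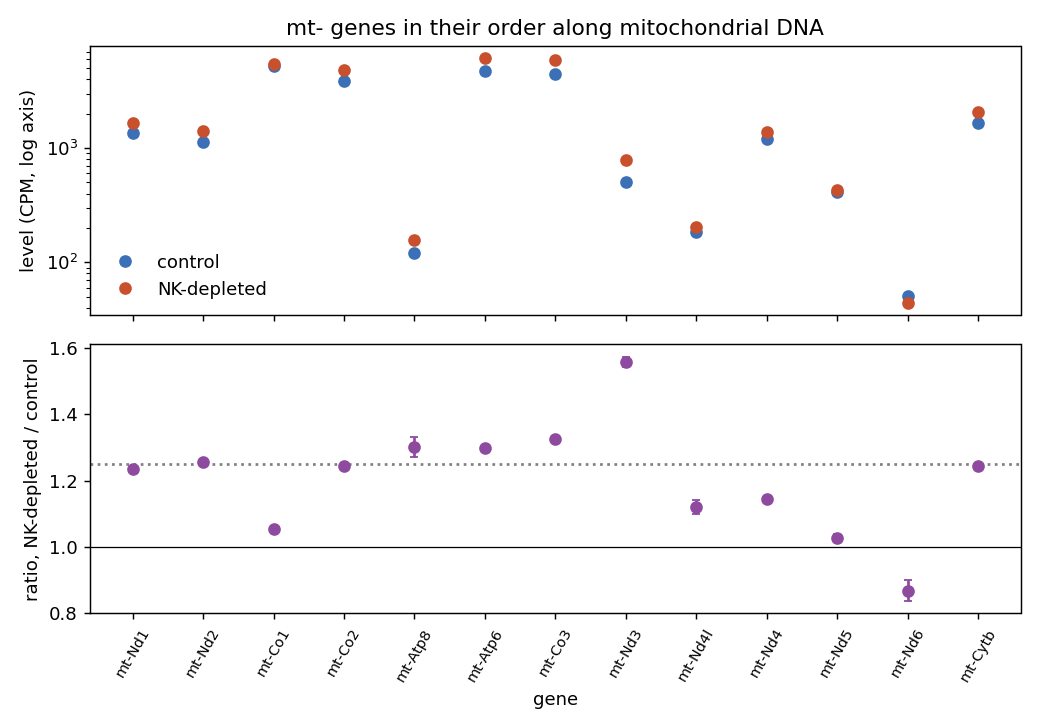
Upper panel, level of each mt- gene (CPM, log axis) in control and NK-depleted cells, in the order of the genes along mitochondrial DNA; lower panel, their ratio with exact 95% intervals for counting error. The dotted line marks the fold limit; mt-Nd3 stands highest at 1.56 and mt-Nd6 lowest at 0.868, and mt-Co1 and mt-Nd5 lie just above 1.

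The genes mt-Atp8 and mt-Atp6 share one RNA, and their coding sequences of 204 and 681 bases overlap by 43 bases (GRCm38, chrM:7927-7969, plus strand, from the GENCODE transcripts). The overlap is printed because its letters belong to both genes; how many UMIs came from it, and how they were assigned, was not tested. It starts with the start codon of mt-Atp6, in capitals:
mt-Atp8 and mt-Atp6: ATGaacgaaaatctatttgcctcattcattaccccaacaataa

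Companion genes were counted to place the mt- difference. Of the 7 measured genes of mitochondrial DNA transcription and copying at 10 CPM, 0 passed the fold limit, and their median log2 ratio was -0.01. Tfam, which packages mitochondrial DNA and starts its transcription, stood at 48.3 and 45.8 CPM (ratio 0.948), and Lrpprc, which stabilises mt- mRNAs, at 21.5 and 26.4 CPM (ratio 1.23). Of 9 measured regulators of nuclear OXPHOS genes, 1 was higher, Pprc1 of the PGC-1 family (7.74 and 11.3 CPM), and 1 lower, Gabpb1 (24.7 and 19.1 CPM). Nrf1 stood at 34.9 and 34.4 CPM, and Ppargc1a, the coactivator PGC-1 alpha, had 8 and 6 UMIs. Of 76 mitochondrial ribosomal protein genes, 2 were higher and 0 lower, and of 16 genes of the TCA cycle and pyruvate dehydrogenase 0 passed the limit in either direction. Of 18 glycolysis genes, 7 were higher and 0 lower (median log2 ratio 0.28). For each of these lists, the shares over all genes at 10 CPM were 6.27% higher and 11.9% lower. The 1 of 9 regulators that was lower is close to the latter share.

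Status was then called in each cell from at least 1 UMI of Tcf7, Havcr2 or Mki67 after thinning to 5500 UMIs, which left out 655 control and 780 NK-depleted cells with fewer. Tcf7 encodes TCF-1, a transcription factor of naive, memory and stem-like CD8+ T cells, Havcr2 encodes the inhibitory receptor TIM-3 of differentiated and exhausted cells, and Mki67 encodes the proliferation antigen Ki-67. Levels were taken from the full counts of those cells. Tcf7 was seen in 20.8% of control and 21.7% of NK-depleted cells (30.02% and 32.3% before thinning), Havcr2 in 28.3% and 34.7% (41.3% and 50.1%), and Mki67 in 25.1% and 35.6% (35.6% and 48.0%), at median depths of 12406.5 and 13233.5 UMIs. As a background, cells with at least 4 of 7 naive or central memory markers (502 control cells of median 10863.5 UMIs and 609 NK-depleted cells of median 9556 UMIs) had a Havcr2 UMI in 4.18% and 9.03% and an Mki67 UMI in 5.58% and 11.7%. For Tcf7, myeloid or dendritic barcodes without CD3 UMIs (median 11802 and 10048.5 UMIs) had one in 8 of 22 control and 0 of 14 NK-depleted barcodes. The control share of Tcf7 thus lay within the interval of that small background (17.2% to 59.3%), and the call is read here only through what differed between its classes. The 7 naive or central memory markers summed to 955 CPM in Tcf7+ and 174 CPM in Tcf7- control cells, and to 858 and 197 CPM in NK-depleted cells.

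Tcf7 status separated the 2 genomes in opposite directions in both libraries. Nuclear members were lower in Tcf7+ than in Tcf7- cells, at 1.90% against 2.27% of UMIs in control (ratio 0.836, 0.833 to 0.839) and 2.02% against 2.34% in NK-depleted cells (0.864, 0.862 to 0.867). The mt- members were higher in Tcf7+ cells, at 2.99% against 2.36% in control (1.27, 1.26 to 1.27) and 3.28% against 2.97% in NK-depleted cells (1.104, 1.101 to 1.11). The ratio of mt- to nuclear UMIs was therefore 1.58 in Tcf7+ and 1.04 in Tcf7- control cells, and 1.62 and 1.27 in NK-depleted cells.

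The direction held for most members. Of 85 nuclear members at 10 CPM, 76 had a ratio below 1 in both libraries and 3 above 1 in both, against 50.3% and 33.7% of all genes, and of the 13 mt- members all 13 lay above 1 in both. In control, 26 nuclear members were past the limit lower and 1 higher, where 17.2% of all genes were lower and 11.1% higher. In NK-depleted cells, 19 were lower and 0 higher, against 18.9% and 11% of all genes. As a share of the 85, the 19 lower in NK-depleted cells lay close to the share over all genes, and the 26 lower in control exceeded it by more. The median log2 ratios of -0.26 and -0.22 lay below the -0.05 and -0.06 of all genes. Of the mt- members, 8 in control and 2 in NK-depleted cells were past the limit higher, mt-Nd2 and mt-Nd5 in both, and 0 lower. Past the limit lower in both libraries were 15 of the 85 nuclear members, a share close to the 14.4% of all genes. They were 6 of complex I (Ndufa1, Ndufa11, Ndufb7, Ndufb8, Ndufb9 and Ndufs5) and Sdhb of complex II. The others were 3 of complex IV (Cox5a, Cox5b and Cox6a1), 4 of complex V (Atp5f1, Atp5j, Atp5k and Atp5o) and Cycs.

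**Figure D4:**
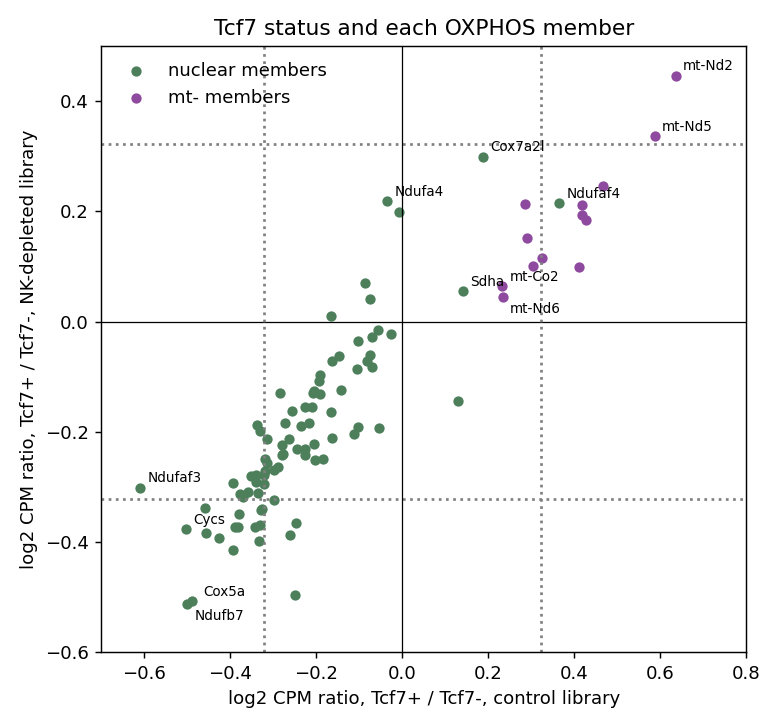
Log2 CPM ratio of Tcf7+ over Tcf7- cells for each member of at least 10 CPM, in the control library (x axis) and the NK-depleted library (y axis). Dotted lines mark the fold limit; 76 of 85 nuclear members (green) lie below 0 in both libraries and all 13 mt- members (purple) above 0 in both.

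Among nuclear members of at least 50 CPM, Ndufb7, Cox5a and Cycs had the lowest ratios by the geometric mean of both libraries. Ndufb7, an accessory subunit of complex I, stood at 269 CPM in Tcf7+ and 380 CPM in Tcf7- control cells (ratio 0.707, 0.687 to 0.728) and at 288 and 411 CPM in NK-depleted cells (0.701, 0.683 to 0.720). Cox5a, a nuclear subunit of complex IV, stood at 283 and 397 CPM (0.712, 0.693 to 0.733) and at 293 and 416 CPM (0.704, 0.685 to 0.722). Cycs stood at 189 and 268 CPM (0.706, 0.681 to 0.730) and at 213 and 277 CPM (0.770, 0.746 to 0.794). The 3 nuclear members above 1 in both libraries were the supercomplex factor Cox7a2l (ratios 1.14 and 1.23), the assembly factor Ndufaf4 (1.29 and 1.16) and the complex II flavoprotein Sdha (1.103 and 1.04). Sdha and Sdhb, which together form the catalytic head of complex II, thus lay on opposite sides of 1, with Sdhb at 0.794 and 0.759. The c subunit genes Atp5g1, Atp5g2 and Atp5g3 had ratios of 0.945, 0.931 and 0.880 in control and 0.951, 0.976 and 0.842 in NK-depleted cells.

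Among mt- members, mt-Nd2, mt-Nd5 and mt-Nd4, all of complex I, differed most with Tcf7. mt-Nd2 stood at 1576 CPM in Tcf7+ and 1014 CPM in Tcf7- control cells (ratio 1.55, 1.54 to 1.57) and at 1788 and 1313 CPM in NK-depleted cells (1.36, 1.35 to 1.38). mt-Nd5 stood at 572 and 381 CPM (1.503, 1.47 to 1.54) and at 513 and 406 CPM (1.26, 1.24 to 1.29). mt-Nd4 stood at 1566 and 1133 CPM (1.38) and at 1585 and 1338 CPM (1.19). mt-Nd6, also of complex I and encoded on the other strand, had ratios of 1.18 and 1.03. By complex, the mt- log2 ratios were 0.50 for complex I, 0.41 for complex III, 0.28 for complex IV and 0.32 for complex V in control, and 0.28, 0.10, 0.11 and 0.12 in NK-depleted cells. The order of the mt- genes was only partly that between the libraries. mt-Nd2, the highest here, was also past the limit between libraries, at 1.26. mt-Nd5 was among the 3 highest here but stood at 1.03 between libraries. mt-Nd3, the highest between libraries at 1.56, had 1.34 and 1.14 here.

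Cells of the naive or central memory kind held part of this difference. Tcf7+ cells with at least 4 of the 7 naive markers (408 control and 454 NK-depleted cells) had 1.65% and 1.73% nuclear and 3.51% and 3.86% mt- UMIs. The remaining Tcf7+ cells (894 and 1149) had 1.99% and 2.10% nuclear and 2.81% and 3.11% mt- UMIs, between the naive-marked cells and the Tcf7- cells without those markers (2.28% and 2.35% nuclear, 2.35% and 2.96% mt-). Cycling markers summed to 545 CPM in Tcf7+ and 1246 CPM in Tcf7- control cells, and to 959 and 1678 CPM in NK-depleted cells. Among cells without an Mki67 UMI, the log2 ratios were -0.28 and -0.25 for nuclear and 0.42 and 0.25 for mt- members. In those cells 32 and 30 nuclear members were past the limit lower (16.5% and 18.3% of all genes) and 1 and 0 higher (12.2% and 11.5%), and 10 and 7 mt- members were higher. Within 5 depth bins of all cells, the log2 ratios ran from -0.35 to -0.16 and from -0.23 to -0.11 for nuclear, and from 0.15 to 0.73 and from 0.05 to 0.20 for mt- members, with the same sign in every bin.

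Other lists differed with Tcf7 to unequal degrees. Of 18 glycolysis genes at 10 CPM, 17 were past the limit lower and 1 higher in Tcf7+ cells in each library (median log2 -0.69 and -0.78). Cytosolic ribosomal protein genes were higher in 23 and 26 of 83 (11.1% and 11% of all genes) and lower in 0 and 1. Mitochondrial ribosomal protein genes were lower in 13 and 14 of 76, a share close to the 17.2% and 18.9% of all genes, and higher in 0 of 76 in each library. Of 8 genes of mitochondrial DNA transcription and copying, 1 and 2 were higher and 0 lower.

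Havcr2 status gave smaller differences. Nuclear members made up 2.34% of UMIs in Havcr2+ and 2.12% in Havcr2- control cells (ratio 1.101, 1.098 to 1.104), and 2.34% and 2.24% in NK-depleted cells (1.04, 1.04 to 1.05). The mt- members made up 2.57% and 2.44% in control (1.05, 1.05 to 1.06) and 3.09% and 2.99% in NK-depleted cells (1.03, 1.03 to 1.04). Among cells without an Mki67 UMI the mt- log2 ratio was 0.03 in control and -0.06 in NK-depleted cells, so its direction in the latter depended on the cells counted. No member at 10 CPM passed the fold limit in either library, while 10.6% and 10.8% of all genes were past it higher in control and NK-depleted cells and 10.8% and 5.9% lower. Among cells without an Mki67 UMI, 7 of 86 nuclear members were higher and 2, Cox6a2 among them, lower in control (11.1% and 12.9% of all genes), and 3 of 85 were higher and 1 lower in NK-depleted cells (13.7% and 8.76%), where of the mt- members mt-Nd2 was lower. Of 85 nuclear members, 60 lay above 1 in both libraries and 12 below 1 in both, against 45.5% and 30.9% of all genes. Among members of at least 50 CPM, ranked by the geometric mean of both libraries, the highest nuclear ratios were those of Cox5a (428 and 344 CPM in control, 436 and 366 CPM in NK-depleted cells; 1.24 and 1.19), Ndufb7 (1.22 and 1.20) and Ndufa1, a small complex I subunit (1.22 and 1.17), and the lowest those of the complex I subunits Ndufa9 (0.913 and 0.919) and Ndufa6 (0.915 and 0.917) and of the assembly factor Ndufaf8 (0.957 and 0.886).

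Among cells without an Mki67 UMI, the 2 status genes together marked the ends of the range of the nuclear share, while the lowest mt- share was that of Tcf7- Havcr2- cells (2.17% and 2.76%). Tcf7- Havcr2+ cells (1085 control and 1304 NK-depleted) had 2.37% and 2.41% nuclear and 2.48% and 2.82% mt- UMIs, and Tcf7+ Havcr2- cells (1058 and 1170) had 1.83% and 1.95% nuclear and 3.09% and 3.38% mt- UMIs. The nuclear ratio was 1.30 (1.29 to 1.30) and 1.24 (1.23 to 1.24), and the mt- ratio 0.802 (0.799 to 0.806) and 0.835 (0.832 to 0.838). In control, 23.2% of all genes were past the limit higher and 20% lower, and in NK-depleted cells 27.1% and 17.3%. Of the 85 nuclear members, 44 and 40 were higher, 38 of them in both libraries (20.2% of all genes), and 1 lower in each, and of the 13 mt- members 9 and 6 were lower and 0 higher. Ndufb7 stood at 414 against 243 CPM in control (1.70, 1.63 to 1.77) and 433 against 256 CPM in NK-depleted cells (1.69, 1.63 to 1.76), and mt-Nd2 at 1041 against 1718 CPM (0.606, 0.595 to 0.617) and 1169 against 1963 CPM (0.596, 0.585 to 0.606). Of 18 glycolysis genes, 17 were higher and 1 lower in each library. Naive or central memory markers summed to 111 against 1133 CPM in control and 137 against 1055 CPM in NK-depleted cells. Dendritic cell markers summed to 138 against 312 CPM and 168 against 136 CPM, and macrophage or monocyte markers to 15.3 against 59.3 CPM and 20.6 against 16.5 CPM. Median depth was 14674 against 10546.5 UMIs and 13102 against 9862 UMIs, and the part of these differences was not tested.

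**Figure D5:**
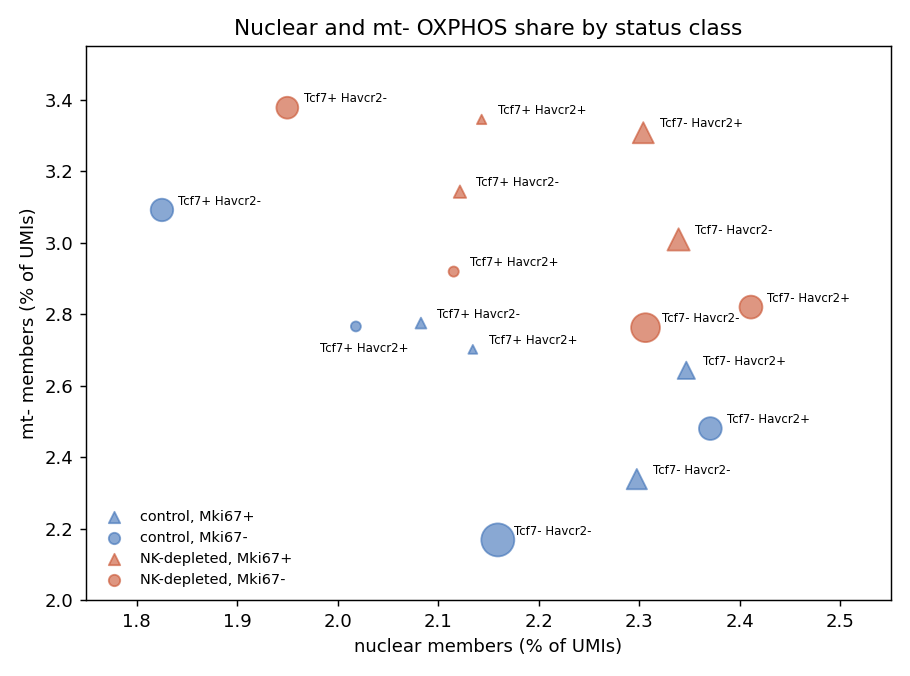
Share of UMIs in nuclear members (x axis) and in mt- members (y axis) for 8 classes of joint Mki67, Tcf7 and Havcr2 status in each library; triangles are Mki67+ and circles Mki67- classes, and the area of a symbol grows with the class's share of cells. In each library the Mki67- Tcf7+ Havcr2- class lies farthest left and highest (1.83% nuclear and 3.09% mt- in control, 1.95% and 3.38% in NK-depleted cells), and each NK-depleted class lies above its control class.

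Mki67 status gave small differences in the sums over cells of all depths. Nuclear members made up 2.30% of UMIs in Mki67+ and 2.15% in Mki67- control cells (ratio 1.07, 1.07 to 1.07), and 2.30% and 2.26% in NK-depleted cells (1.02, 1.02 to 1.02). The mt- members made up 2.51% and 2.47% in control (1.02, 1.01 to 1.02) and 3.16% and 2.91% in NK-depleted cells (1.08, 1.08 to 1.09). Mki67+ cells were deeper (medians 18909 against 11233 UMIs in control and 18687 against 11472 in NK-depleted cells), and the share of nuclear members was larger in deeper cells. Averaged over 5 depth bins, the nuclear log2 ratio was 0.04 in control and -0.09 in NK-depleted cells, and the mt- log2 ratio -0.09 and 0.25, so 2 of the 4 values changed sign. In NK-depleted cells the mt- value ran from 0.08 to 0.38 over the bins. Its average was above the 0.14 for Tcf7 over the same bins of that library.

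Single members moved more than the sums with Mki67. In control, 6 of 85 nuclear members were past the limit higher and 1 lower, against 17.7% and 9.98% of all genes. In NK-depleted cells 1 was higher and 2 lower, against 19.3% and 8.12%. Ndufaf2, an assembly factor of complex I, had the largest ratio of the 85 in both libraries, 1.38 in control and 1.46 in NK-depleted cells. It stood at 32.4 against 23.4 CPM and at 38.5 against 26.3 CPM. The ranking below is of members of at least 50 CPM and so leaves it out. Ranked in the same way, the highest ratios were those of Atp5o, the stalk subunit OSCP of the ATP synthase (273 and 210 CPM in control, 289 and 231 CPM in NK-depleted cells; ratios 1.30 and 1.248), Ndufab1, the mitochondrial acyl carrier protein (1.29 and 1.19), and Atp5b (1.23 and 1.22). The lowest were those of Ndufa6 (208 and 272 CPM, 186 and 251 CPM; 0.765 and 0.740), Uqcrh (0.841 and 0.786) and Cox7a2l (0.842 and 0.802). mt-Cytb had the highest mt- ratio in both libraries (1.098 and 1.16) and mt-Nd2 the lowest (0.920 and 0.982).

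The library difference was then read within classes. For mt- members the log2 ratio of NK-depleted over control was 0.13 in Tcf7+ and 0.33 in Tcf7- cells, 0.33 in Mki67+ and 0.24 in Mki67- cells, and 0.27 in Havcr2+ and 0.29 in Havcr2- cells. It was positive in each of the 8 joint classes, from 0.08 (Mki67- Tcf7+ Havcr2+, 82 and 108 cells) to 0.36 (Mki67+ Tcf7- Havcr2-, 837 and 1224 cells). For nuclear members it ran from -0.03 to 0.10 over the same classes. Of the 13 mt- members, 8 were higher in all 8 classes: mt-Nd1, mt-Nd2, mt-Nd3, mt-Co2, mt-Co3, mt-Atp6, mt-Atp8 and mt-Cytb, where 6.52% of all genes, not matched for level, were. mt-Nd3 had ratios of 1.36 in Tcf7+ and 1.61 in Tcf7- cells. The difference between Tcf7+ and Tcf7- cells in the library ratio was not tested, since each class of a library is 1 sample.

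Markers of other cell types were counted in the same cells, and their part in the differences was not tested. Macrophage or monocyte markers summed to 32.4 CPM in control and 23.8 CPM in NK-depleted cells, dendritic cell markers to 266 and 172 CPM, and B cell, neutrophil, tumour epithelium, fibroblast and erythroid markers to under 5 CPM in each library. In the Tcf7+ and Tcf7- classes the macrophage or monocyte sum was 52.9 and 24.1 CPM in control and 23.4 and 22.9 CPM in NK-depleted cells. The dendritic cell sum in these classes was 318 and 257 CPM in control and 186 and 171 CPM in NK-depleted cells. Among cells without an Mki67 UMI it was 335 and 235 CPM in control and 135 and 247 CPM in NK-depleted cells. Without cells that held at least 3 UMIs of such markers, the library log2 ratio was 0.05 for nuclear and 0.30 for mt- members. Cycling markers summed to 1093 CPM in control and 1524 CPM in NK-depleted cells, and the mt- log2 ratio within Mki67- cells was 0.24.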

How the data were processed

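Single-cell RNA of sorted CD8+ T cells was measured in 2 libraries, 1 per group. The deposited matrices hold raw UMI counts per gene and barcode, not normalized; per the file headers, the authors made them with Cell Ranger 6.1.2. The submitters' processing notes also name Seurat 4.0.6 and the mm10 build. The gene and barcode columns give only names. The cells of each library summed to 106462391 (control) and 125332343 (NK-depleted) UMIs.

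Counts were summed per library or class and given as CPM of all UMIs. Ratios carry exact conditional binomial 95% intervals and shares exact Clopper-Pearson intervals, which cover counting error only. A member was counted as different from 25% higher or 20% lower, among genes of at least 10 CPM in 1 group. Status was called after thinning each cell to 5500 UMIs, the lower 10th percentile rounded down. Doublets were not called; the alternative without the 8% of barcodes with the most UMIs bears on them. Members and lists were chosen with earlier results of these data known. Named members are all mt- genes, the 2 highest of each complex, the 3 largest and smallest ratios of each comparison at 50 CPM (by geometric mean over libraries for status), up to 4 genes of a companion list, tissue-restricted isoforms, paralogue families, Ndufa4, Cycs and Sdha to Sdhd; further members, named where a count holds them, were chosen after their values were seen. The marker Trgc1 was not used here. Ratios and thinning were tested on simulated data. In a simulation of the library comparison over 7500 genes, 100% of 50 genes changed by 1.5-fold passed the fold limit. The simulation held counting error only and no variation between libraries, so it checks the arithmetic and cannot stand in for replicates. Python 3.11.15, numpy 2.4.6, scipy 1.17.1 and pandas 2.3.3 were used, with edgeR 4.0.16 for TMM factors only. Promoter windows and coordinates are of GRCm38, from RefSeq and GENCODE.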

Additional observations from a re-analysis of the deposited data

Results flagged for a closer look

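Some differences between classes or libraries ran in opposite directions, and none of these differences was tested, since each class of a library is 1 sample. With Havcr2, the mt- members of complex I had a log2 ratio of 0.023 in control and -0.047 in NK-depleted cells. Between the libraries, the nuclear members of complex III had a log2 ratio of -0.026 in Mki67+ and 0.038 in Mki67- cells, and those of complex IV -0.058 and 0.046. In Havcr2+ and Havcr2- cells the values were -0.031 and 0.032 for complex III, -0.051 and 0.045 for complex IV, and -0.092 and 0.16 for cytochrome c.

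Barcodes outside the described cells carried mt- transcripts as well: 7.65% of NK-depleted barcodes that were otherwise eligible reached the limit of 10% mt- UMIs, against 1.71% in control. These barcodes had medians of 1938 and 1694.5 UMIs.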

How the results depend on the processing

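No paired analysis was possible because each group is 1 library. Values are log2 ratios unless named otherwise, limits are those on the mt- share, and no cause was tested.

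Between the libraries, the nuclear sum (0.050) was 0.074 at the 5% limit, 0.045 at the 20% limit, 0.041 with no limit, 0.060 without the deepest 8%, 0.055 without shared barcodes, 0.14 with TMM, 0.12 with median-of-ratios factors, 0.059 with the non-mt- denominator and as a mean over cells and 0.056 with thinned cells. The mt- sum (0.29) was 0.20 at the 5% limit, 0.33 at the 20% limit, 0.38 with no limit and with TMM, 0.30 without barcodes with other markers, without shared barcodes and with the non-mt- denominator, 0.34 without the deepest 8%, 0.36 with median-of-ratios factors, 0.37 with thinned cells and 0.39 as a mean over cells. The median of all genes was -0.064, and 0.023 with TMM and 0.0041 with median-of-ratios factors. The count of higher nuclear members (1) was 7 with TMM, 6 with median-of-ratios factors and 3 with no minimum level. The count of lower nuclear members (1) was 4 with no minimum level. The count of higher mt- members (5) was 1 at the 5% limit and 8 at the 20% limit, with no limit, without the deepest 8%, without shared barcodes, with TMM, with median-of-ratios factors, with thinned cells and as a mean over cells. The mt- to nuclear ratio in control (1.13) was 1.09 at the 5% limit, 1.15 at the 20% limit, 1.16 with no limit and 1.03 as a median over cells. In NK-depleted cells it (1.34) was 1.19 at the 5% limit, 1.4 at the 20% limit, 1.47 with no limit and 1.22 as a median over cells.

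The nuclear sum for Mki67 in control cells (0.099) was 0.14 with status not thinned, 0.037 over 5 depth bins and 0.072 without the deepest 8%. The mt- sum for Mki67 in control cells (0.025) was 0.044 with status not thinned, 0.046 with status from 2 UMIs, -0.085 over 5 depth bins, 0.0044 with thinned counts, 0.0031 at the 5% limit, 0.038 at the 20% limit and -0.023 without the deepest 8%. The nuclear sum for Mki67 in NK-depleted cells (0.025) was 0.080 with status not thinned, -0.0050 with status from 2 UMIs, -0.086 over 5 depth bins, 0.018 with thinned counts and at the 20% limit, 0.029 with the non-mt- denominator, -0.0017 with median-of-ratios factors, 0.047 at the 5% limit and -0.0032 without the deepest 8%. The mt- sum for Mki67 in NK-depleted cells (0.12) was 0.079 with status not thinned, 0.15 with status from 2 UMIs, 0.25 over 5 depth bins, 0.16 with thinned counts, at the 20% limit and without the deepest 8%, 0.12 with the non-mt- denominator, 0.091 with median-of-ratios factors and 0.040 at the 5% limit.

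The nuclear sum for Tcf7 in control cells (-0.26) was -0.21 with status not thinned, -0.37 with status from 2 UMIs, -0.28 without Mki67+ cells, with thinned counts and without the deepest 8%, -0.20 without naive-marked cells, -0.25 with the non-mt- denominator and -0.23 with median-of-ratios factors. The mt- sum for Tcf7 in control cells (0.34) was 0.30 with status not thinned, 0.44 with status from 2 UMIs, 0.42 without Mki67+ cells and without the deepest 8%, 0.26 without naive-marked cells, 0.47 over 5 depth bins, 0.46 with thinned counts, 0.35 with the non-mt- denominator, 0.37 with median-of-ratios factors and 0.33 at the 20% limit. The nuclear sum for Tcf7 in NK-depleted cells (-0.21) was -0.17 with status not thinned and with median-of-ratios factors, -0.30 with status from 2 UMIs, -0.25 without Mki67+ cells, -0.16 without naive-marked cells, -0.18 over 5 depth bins, -0.23 with thinned counts and -0.22 at the 5% limit and without the deepest 8%. The mt- sum for Tcf7 in NK-depleted cells (0.14) was 0.096 with status not thinned, 0.25 with status from 2 UMIs and without Mki67+ cells, 0.072 without naive-marked cells, 0.14 over 5 depth bins, 0.17 with thinned counts, 0.15 with the non-mt- denominator, 0.18 with median-of-ratios factors and at the 5% limit, 0.11 at the 20% limit and 0.16 without the deepest 8%. Each Tcf7 sum kept its direction under each of these settings.

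The nuclear sum for Havcr2 in control cells (0.14) was 0.21 with status not thinned, 0.19 without Mki67+ cells, 0.10 over 5 depth bins, 0.18 with thinned counts, 0.15 with median-of-ratios factors and 0.16 without the deepest 8%. The mt- sum for Havcr2 in control cells (0.077) was 0.12 with status not thinned and over 5 depth bins, 0.083 with status from 2 UMIs, 0.031 without Mki67+ cells, 0.13 with thinned counts, 0.092 with median-of-ratios factors, 0.069 at the 5% limit and 0.084 without the deepest 8%. The nuclear sum for Havcr2 in NK-depleted cells (0.060) was 0.13 with status not thinned, 0.051 with status from 2 UMIs, 0.12 without Mki67+ cells, 0.056 over 5 depth bins, 0.083 with thinned counts, 0.015 with median-of-ratios factors, 0.075 at the 5% limit and 0.054 at the 20% limit. The mt- sum for Havcr2 in NK-depleted cells (0.049) was 0.036 with status not thinned, 0.059 with status from 2 UMIs, -0.063 without Mki67+ cells, 0.078 over 5 depth bins, 0.067 with thinned counts, 0.0040 with median-of-ratios factors, -0.014 at the 5% limit, 0.087 at the 20% limit and 0.077 without the deepest 8%.

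Named members that changed sign were Cox6a2 (-1.79, but 1.14 without barcodes with other markers and 1.03 without cells with a Siglech UMI), Ndufaf3 (0.0037, from -0.093 to 0.089), Ndufaf8 (0.024, from -0.022 to 0.11), Sdha (-0.059, but 0.026 with TMM and 0.0071 with median-of-ratios factors), mt-Co1 (0.077, but -0.0042 at the 5% limit), mt-Nd5 (0.038, but -0.046 at the 5% limit) and Ndufa9 for Havcr2 in NK-depleted cells (-0.12, but 0.00044 with status not thinned). The depth bins and the settings without naive-marked cells or cells with Siglech were chosen after seeing the data. The shallowest cells limit the status calls, and 1 library per group limits every comparison.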
